A study of Mus musculus with 18 samples.

Results

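Members of endothelin, nitric oxide and natriuretic signalling were followed in mouse aorta: the 9 genes Edn1, Ednrb, Nos3, Gucy1a1, Gucy1b1, Npr1, Npr3, Ace and Npy1r. They were chosen by name, as every probe set of the array whose single annotated gene symbol was one of these 9, and they make up 16 of 20393 probe sets with 1 gene. Of the 16 probe sets, 11, from 8 of the 9 genes, had a log2 level above 4 in at least 3 of the 18 samples, and 7093 genes of the array in all met that minimum. The 18 samples were aortas of male C57Bl/6 mice kept in organ culture in DMEM, each a pool of 3 aortas. Cultures were given aldosterone at 100 nM or vehicle and were taken after 2 h, 4 h or 8 h, with 3 pools in each of the 6 groups. Before the aortas were taken, every mouse, also those of the vehicle groups, had spironolactone released under the skin from a pellet for 5 days, at 20 mg/kg/day. This drug blocks the mineralocorticoid receptor. No uncultured aorta is among the samples, so the 2 h vehicle group is the earliest point of the culture series. Levels are the deposited log2 values of Affymetrix arrays, on a scale where a difference of 1 is a 2-fold change.

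Endothelin 1, the peptide encoded by Edn1, is released by endothelial cells and constricts the smooth muscle beneath them, while the endothelin B receptor encoded by Ednrb clears the peptide and signals in endothelium. Nitric oxide made by endothelial nitric oxide synthase, the product of Nos3, diffuses to smooth muscle and binds soluble guanylate cyclase, a dimer of the alpha 1 and beta 1 subunits encoded by Gucy1a1 and Gucy1b1, which makes cyclic GMP and relaxes the vessel. Natriuretic peptides raise cyclic GMP by another route, through the receptor guanylate cyclase Npr1, and are cleared by Npr3, which lacks the cyclase domain. Angiotensin-converting enzyme, encoded by Ace, makes angiotensin II and degrades bradykinin, and Npy1r encodes the Y1 receptor through which neuropeptide Y from sympathetic nerves constricts arteries. Aldosterone is an endogenous agonist of the mineralocorticoid receptor, which is present in endothelium and in smooth muscle.

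The 250 bases upstream of a transcription start in RefSeq (GRCm38.p6) are shown for the ligand Edn1, the paired cyclase subunits Gucy1a1 and Gucy1b1, the receptor Npy1r and the enzyme Ace, because the results on culture and on aldosterone below turn mostly on these genes. Capitals mark matches on either strand to 5 short motifs. The motif searched for the TATA box was TATAAA. For AP-1 factors it was TGANTCA. For steroid receptors, the mineralocorticoid receptor among them, it was the core AGAACA. For GATA factors it was GATAA, and for the GC box it was GGGCGG. Each sequence reads 5′ to 3′ on the strand of its gene. The windows are chr13:42301226-42301475 on the plus strand for Edn1, chr3:82145651-82145900 on the minus strand for Gucy1a1, chr3:82074712-82074961 on the minus strand for Gucy1b1, chr8:66697172-66697421 on the plus strand for Npy1r and chr11:105967698-105967947 on the plus strand for Ace. In RefSeq the Npy1r gene begins at 66697149, and the Gucy1a1 gene, on the minus strand, begins at 82145946. The windows of these genes therefore lie inside the annotated gene, before a start further downstream.
Edn1: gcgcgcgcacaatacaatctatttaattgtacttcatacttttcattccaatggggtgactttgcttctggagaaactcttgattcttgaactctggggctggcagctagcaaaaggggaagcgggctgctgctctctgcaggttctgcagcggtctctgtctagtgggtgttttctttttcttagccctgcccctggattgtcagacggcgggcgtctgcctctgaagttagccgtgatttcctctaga
Gucy1a1: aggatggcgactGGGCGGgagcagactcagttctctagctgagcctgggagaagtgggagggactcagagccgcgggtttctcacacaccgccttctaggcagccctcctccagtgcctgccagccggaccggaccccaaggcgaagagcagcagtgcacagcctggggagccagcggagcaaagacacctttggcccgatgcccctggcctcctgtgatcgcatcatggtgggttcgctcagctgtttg
Gucy1b1: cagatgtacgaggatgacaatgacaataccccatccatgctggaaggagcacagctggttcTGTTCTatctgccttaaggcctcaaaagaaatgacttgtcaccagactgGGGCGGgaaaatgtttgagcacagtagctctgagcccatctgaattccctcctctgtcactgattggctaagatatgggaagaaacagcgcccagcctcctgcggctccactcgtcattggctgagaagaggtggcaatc
Npy1r: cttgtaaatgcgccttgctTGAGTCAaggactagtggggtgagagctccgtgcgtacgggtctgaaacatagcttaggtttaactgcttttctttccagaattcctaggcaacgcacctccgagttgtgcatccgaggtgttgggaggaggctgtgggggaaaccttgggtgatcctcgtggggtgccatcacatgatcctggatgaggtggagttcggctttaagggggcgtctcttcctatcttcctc
Ace: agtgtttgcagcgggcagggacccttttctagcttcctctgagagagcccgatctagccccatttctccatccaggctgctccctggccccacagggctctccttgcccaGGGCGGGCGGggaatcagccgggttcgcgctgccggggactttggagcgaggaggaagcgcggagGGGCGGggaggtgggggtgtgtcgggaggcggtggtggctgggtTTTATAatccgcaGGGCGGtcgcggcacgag

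None of the 5 motifs was found in the window of Edn1. The window of Npy1r held 1 AP-1 match, 231 bases before the start used and inside the annotated gene, and AP-1 matches were present in 6.75% of 32851 RefSeq promoters of the same length. That of Gucy1a1 held 1 GC box, 238 bases before the start, and that of Gucy1b1 held 1 GC box at 140 bases and, on the opposite strand, 1 steroid receptor core at 189 bases. The window of Ace held 4 GC boxes, at 140, 136, 75 and 18 bases, the first pair of which overlap, and a TATA box on the opposite strand at 31 bases. GC boxes were present in 32.7%, steroid receptor cores in 16.1%, TATA boxes in 12.4% and GATA motifs in 22.6% of all these promoters. RefSeq promoters were matched for 8 of the 9 genes. In the RefSeq table Gucy1a1 and Gucy1b1 are neighbours on chromosome 3, with 0 genes listed between them. Among the windows not shown, Npr3 and Ednrb each held 1 steroid receptor core and Npr1 held 2 GC boxes. The table lists a second start for Gucy1a1 and for Ace, whose windows held none of the motifs. These matches are a description of the letters and were not tested against the levels.

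Vehicle 2 h replicate 1 stood apart from the other samples. Its median log2 level was 4.42, against 4.01 to 4.09 in the other 17 samples, and 908 genes differed by more than 1 from the mean of its group mates, against 17 to 239 genes in the other samples. Results that rest on this sample are given with and without it. The 3′ minus 5′ signal of the Gapdh control, a measure of RNA integrity, lay between 0.36 and 0.79 in all 18 samples, and it moved with culture time. With aldosterone it was 0.57 to 0.67 at 2 h, 0.46 to 0.75 at 4 h and 0.45 to 0.49 at 8 h, and with vehicle 0.56 to 0.64, 0.49 to 0.79 and 0.36 to 0.53, so that all 8 h samples lay below all 2 h samples. The 3′ minus 5′ signal of the actin control did not separate these times. At 2, 4 and 8 h it was 1.77 to 1.88, 1.84 to 2.08 and 1.72 to 1.82 with aldosterone. With vehicle it was 1.63 to 2.11, 1.89 to 2.13 and 1.51 to 2.02. Its 2 h and 8 h samples overlapped in both treatments. The part of RNA integrity in the changes over culture was not tested.

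The first question was whether aldosterone changed these genes. None of the 8 genes tested passed an adjusted p of 0.05 between aldosterone and vehicle at 2 h, 4 h or 8 h, on the average of the 3 times, or in the test that the hormone difference changed with time (limma with Benjamini-Hochberg adjustment over 7093 genes). Of all genes tested, 0.0705% passed at 2 h, 0.24% at 4 h, 1% at 8 h, 1.1% on the average and 0.155% in the test of change with time. Without vehicle 2 h replicate 1 the count of the 8 genes was again 0 in each of these, with 0.409%, 0.451%, 1.56%, 2.06% and 0.211% of all genes. At an unadjusted p under 0.05, 0 of the 8 genes passed at 2 h, 0 at 4 h and 2 at 8 h, Ace and Edn1, and 0 on the average and in the test of change with time. Of all 7093 genes tested, 782 passed this unadjusted limit at 2 h, 267 at 4 h, 444 at 8 h and 598 on the average. The number for the test of change with time is not given here. In this bulk tissue, fewer cells of a type and less RNA per cell cannot be told apart. The median difference of the 8 genes at 8 h was 0.19 on the log2 scale, against 0.01 over all genes tested.

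**Figure D1:**
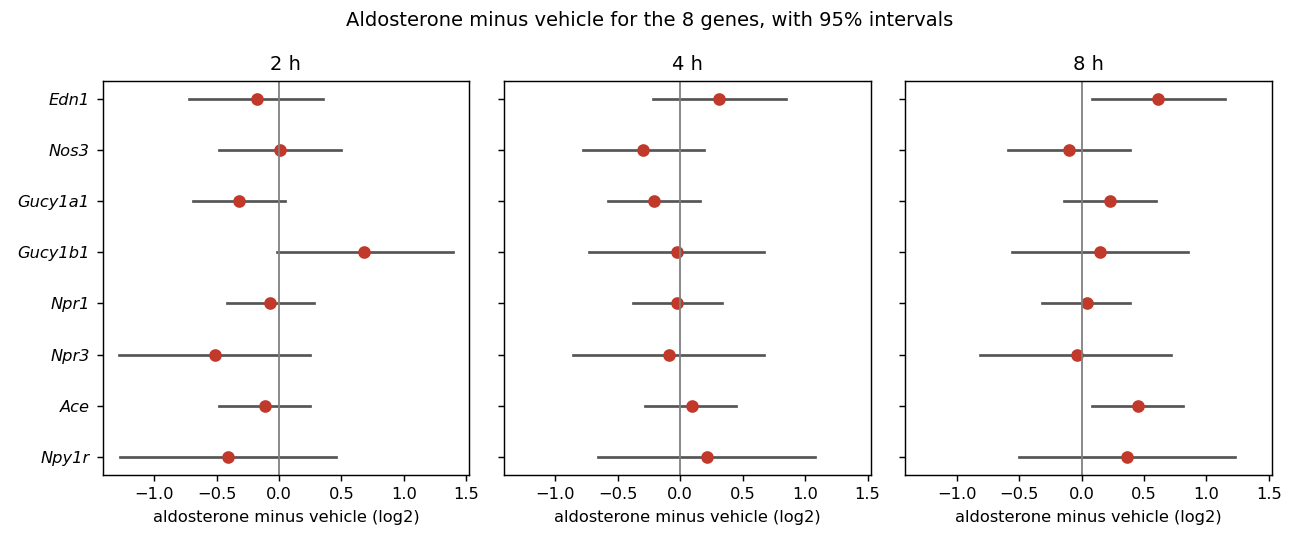
Aldosterone minus vehicle difference in log2 level (horizontal axis) at 2, 4 and 8 h for the 8 genes past the filter. Points are limma estimates and lines are 95% intervals; the intervals of Edn1 and Ace at 8 h lie above 0, and no gene passed the adjusted threshold at any time.

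Ace had the smallest p of the 8 genes at 8 h. On the probe set that stands for the gene, its log2 levels were 7.83, 8.18 and 7.71 in aldosterone samples and 7.43, 7.59 and 7.36 in vehicle samples at 8 h. All 3 aldosterone samples lay above the 3 vehicle samples. The difference was 0.45 ± 0.17 on the log2 scale (SE, n = 3 and 3, limma unadjusted p = 0.0197, adjusted p = 0.536), with a 95% interval of 0.08 to 0.81.

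A second Ace probe set also passed the filter. It read 7.38, 7.96 and 7.62 in aldosterone samples and 6.83, 7.38 and 6.59 in vehicle samples at 8 h. Here too the aldosterone samples were the higher ones, although the lowest of them was barely above the highest vehicle sample. The difference was 0.72 ± 0.21 (SE, n = 3 and 3, limma unadjusted p = 0.00347), with an adjusted p of 0.193 over all probe sets, which became 0.0468 when vehicle 2 h replicate 1 was left out of the fit. At 2 h the same probe set differed by -0.17 ± 0.21, and at 4 h by 0.23 ± 0.21, with adjusted p values of 0.791 and 1.

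Edn1 was the other gene with an unadjusted p under 0.05. Its levels at 8 h were 4.78, 5.81 and 5.04 in aldosterone samples and 4.64, 4.39 and 4.75 in vehicle samples. Aldosterone replicate 2 was the highest of these 6, and aldosterone replicate 1 was barely above vehicle replicate 3. The difference was 0.61 ± 0.26 (SE, n = 3 and 3, limma unadjusted p = 0.0277, adjusted p = 0.64). It was 0.31 ± 0.26 at 4 h and -0.18 ± 0.26 at 2 h, and the 2 h value became 0.05 when vehicle replicate 1 of that time was left out. The test that these 3 differences were unequal gave an adjusted p of 0.933.

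Ace, Edn1 and Gucy1b1 were the 3 of 8 genes whose aldosterone samples all lay above the vehicle samples at 8 h, against 9.11% of all genes tested. The Gucy1b1 difference was 0.15 ± 0.33, and its other probe set pointed the opposite way (-0.18 ± 0.23), so the separation held for 1 of its 2 probe sets. At 2 h only Gucy1a1 had all 3 aldosterone samples below the vehicle samples, against 10.5% of all genes, with a difference of -0.32 ± 0.18 (limma adjusted p = 0.515). Of 8 measured macrophage markers, Lyve1 and Mrc1 were higher with aldosterone at 8 h, by 1.37 ± 0.29 and 1.27 ± 0.28 (limma adjusted p = 0.0254 and 0.0335), and the median difference of the 8 was 0.03. Both genes fell between 2 h and 8 h: Lyve1 changed by -1.03 with aldosterone and -2.39 with vehicle, and Mrc1 by -2.23 and -3.52. The summed linear level of that list was 835 to 919 in aldosterone samples and 663 to 997 in vehicle samples at 8 h. None of 9 measured endothelial, 11 smooth muscle, 8 fibroblast, 8 adipocyte and 2 cardiac and skeletal muscle markers passed the test at 8 h. The summed level of the adipocyte list was nevertheless 15600 to 18600 in aldosterone samples and 11700 to 12900 in vehicle samples, without overlap, with a median difference of 0.15. That of the cardiac and skeletal muscle list was 46.2 to 275 and 31.3 to 46.2, with a median difference of 1.11 over its 2 genes. The part of these lists in the values of Ace and Edn1 was not tested.

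The remaining 5 genes showed 8 h differences whose 95% intervals spanned 0. Npy1r differed by 0.36 ± 0.41, Gucy1a1 by 0.23 ± 0.18 and Nos3 by -0.10 ± 0.23. Npr1 and Npr3 differed by 0.04 ± 0.17 and -0.04 ± 0.36. The widest of these intervals, that of Npy1r, ran from -0.50 to 1.23, and the narrowest, that of Npr1, from -0.32 to 0.39; in both groups Npr1 and Npy1r were at or below 4 at this time.

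The second question was how the genes moved during culture. Between 2 h and 8 h, 6 of the 8 genes fell with aldosterone and 7 of the 8 fell with vehicle, while 27.3% and 31.9% of all genes tested fell. The median change of the 8 genes was -1.64 with aldosterone and -1.79 with vehicle on the log2 scale, against 0.02 and -0.07 over all genes tested. Nos3 did not pass the test over these 6 h in either treatment, and Ace did not with aldosterone. The aldosterone and vehicle comparisons use different samples. Without vehicle 2 h replicate 1 the counts were again 6 and 7 (30.6% and 28.6% of all genes). From 2 h to 4 h, 4 genes fell in each treatment (21.3% of all genes with aldosterone, 25.6% with vehicle), and 5 in each without that replicate (26.7% and 19.7%). From 4 h to 8 h, 4 genes fell and 1 rose with aldosterone (16.6% and 21% of all genes), and 5 fell with vehicle (17% of all genes); without that replicate the counts were again 4, 1 and 5 (20.6%, 27.2% and 21.1%).

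**Figure D2:**
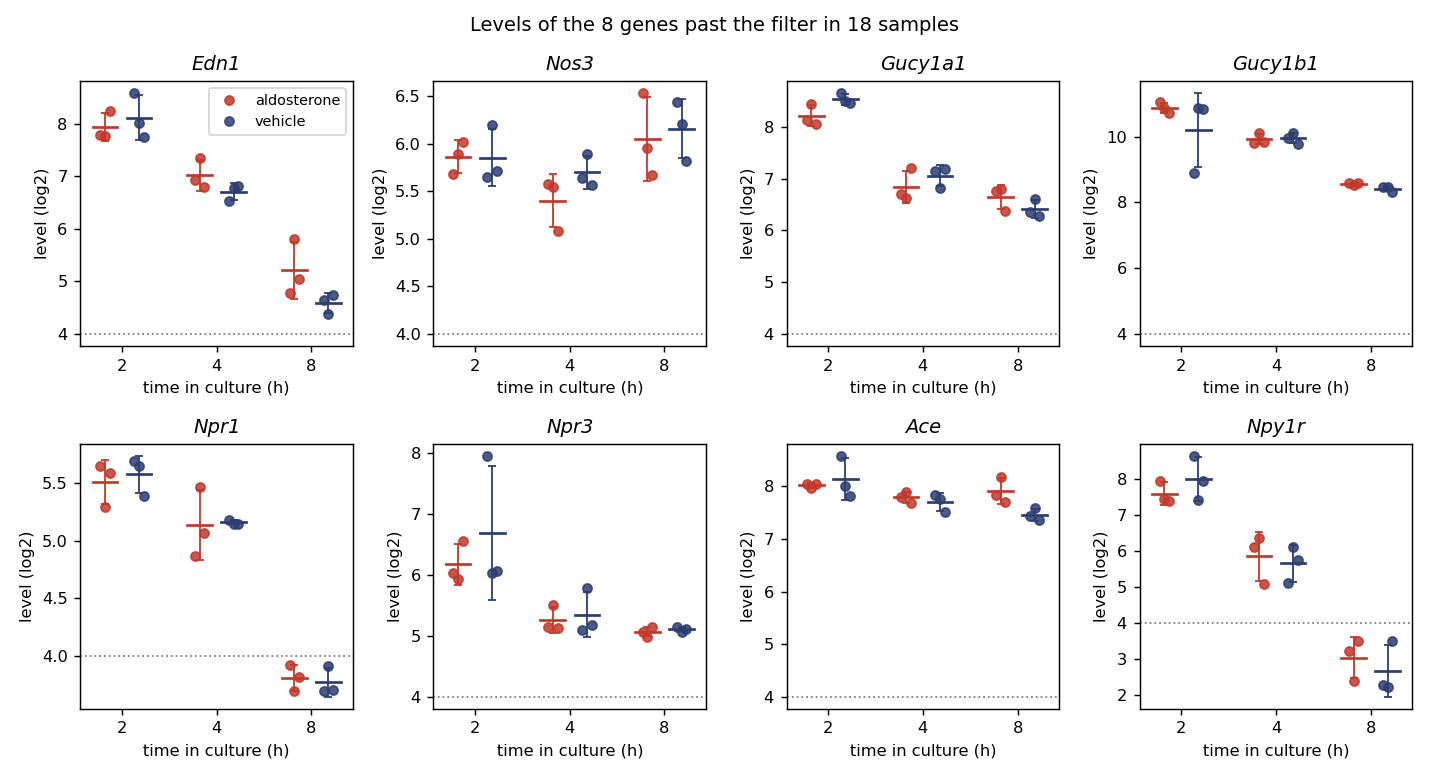
Log2 level (vertical axis, its range set per gene) of the 8 genes past the filter in each of the 18 samples at 2, 4 and 8 h of culture, aldosterone in red on the left and vehicle in blue on the right of each time. Horizontal bars are means and vertical bars are SD (n = 3); the dotted line is the filter at 4. The panels of 6 genes step down with time in both treatments, Nos3 and Ace stay within narrower ranges, and 1 vehicle sample at 2 h stands apart for Gucy1b1 and Npr3.

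The ligand gene Edn1 was lower at each later time. At 2 h it read 7.78, 7.77 and 8.24 with aldosterone and 8.58, 8.02 and 7.74 with vehicle. At 4 h it read 6.92, 7.35 and 6.79 with aldosterone and 6.52, 6.78 and 6.82 with vehicle. At 8 h the levels were those given above, between 4.78 and 5.81 with aldosterone and between 4.39 and 4.75 with vehicle. No sample of a later time reached the level of any sample of an earlier one within its treatment. The change from 2 h to 8 h was -2.72 ± 0.26 with aldosterone (SE, n = 3 and 3, limma adjusted p = 9.86e-08), a level 6.58-fold lower. With vehicle it was -3.52 ± 0.26 (limma adjusted p = 4.12e-09), 11.4-fold lower, or 9.74-fold lower without vehicle 2 h replicate 1. More of the change fell in the second interval than in the first: -0.91 and then -1.81 with aldosterone, and -1.41 and then -2.11 with vehicle. The first aldosterone step had an adjusted p of 0.00998, and of 0.0527 without aldosterone 2 h replicate 3 (-0.753).

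Ednrb, the receptor member, did not pass the filter in these samples. Its 2 probe sets lay between 2.77 and 3.79 and between 2.51 and 3.55 over the 18 samples, all under the filter of 4. No change of Ednrb is therefore reported, and the levels bound the signal of these probe sets only.

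Nos3, the endothelial source of nitric oxide, was the steadiest of the 8 genes together with Ace, with a range of 0.75 between its 6 group means against 0.67 for Ace. At 2 h it read 5.68, 5.89 and 6.02 with aldosterone and 5.65, 6.20 and 5.71 with vehicle. At 4 h it read 5.58, 5.54 and 5.08 with aldosterone and 5.64, 5.89 and 5.56 with vehicle. At 8 h it read 6.53, 5.95 and 5.67 with aldosterone and 6.44, 6.21 and 5.82 with vehicle. Samples of 8 h and 2 h overlapped in both treatments, and with aldosterone the 4 h samples lay below those of both other times. Nos3 rose between 4 h and 8 h with aldosterone by 0.65 ± 0.23 (SE, n = 3 and 3, limma adjusted p = 0.0353). The same step with vehicle was 0.46 ± 0.23 (limma adjusted p = 0.133). Over the whole 2 h to 8 h interval Nos3 differed by 0.19 ± 0.23 with aldosterone and 0.30 ± 0.23 with vehicle. The aldosterone rise did not pass the threshold without aldosterone 8 h replicate 1 (0.41, adjusted p = 0.197), without aldosterone 8 h replicate 2 (0.70, adjusted p = 0.0568) or without aldosterone 4 h replicate 3 (0.49, adjusted p = 0.154). Nor did it pass with no filter, with quantile normalization again or with the compared groups alone (adjusted p = 0.0665, 0.0676 and 0.0586).

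Endothelial markers, which bear on Edn1 and Nos3 alike, were measured in 9 of 12 cases, with Tie1, Robo4 and Erg under the filter. Between 2 h and 8 h, 1 of the 9 rose and 4 fell with aldosterone, and 0 rose and 4 fell with vehicle. Without vehicle 2 h replicate 1, 2 rose and 4 fell with vehicle, and the aldosterone counts were again 1 and 4. Their summed linear level was 1740 to 2380 at 2 h, 1260 to 1440 at 4 h and 1380 to 1800 at 8 h with aldosterone. With vehicle it was 1790 to 3330 at 2 h, 1340 to 1590 at 4 h and 1420 to 1630 at 8 h. The part of endothelial RNA content in the changes of Edn1 and Nos3 was not tested.

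Both subunits of soluble guanylate cyclase fell. Gucy1a1, the alpha 1 subunit, read 8.13, 8.44 and 8.06 with aldosterone and 8.65, 8.49 and 8.45 with vehicle at 2 h. It read 6.70, 6.63 and 7.20 with aldosterone and 7.15, 6.82 and 7.19 with vehicle at 4 h, and 6.76, 6.79 and 6.37 with aldosterone and 6.36, 6.60 and 6.28 with vehicle at 8 h. Every 2 h sample was above every later sample, and with aldosterone the 4 h and 8 h samples overlapped. Over 2 h to 8 h Gucy1a1 changed by -1.57 ± 0.18 with aldosterone (SE, n = 3 and 3, limma adjusted p = 8.65e-07), 2.96-fold lower. With vehicle it was -2.12 ± 0.18 (limma adjusted p = 2.21e-08), 4.34-fold lower. Most of this lay in the first interval, -1.37 with aldosterone and -1.48 with vehicle. The step from 4 h to 8 h was -0.20 with aldosterone, which did not pass, and -0.64 with vehicle, which did (limma adjusted p = 0.403 and 0.00841); on the second probe set the vehicle step was -0.27 and did not pass (adjusted p = 0.255). The test of a changing hormone difference gave an adjusted p of 0.924, so the treatments were not shown to differ. The second probe set of Gucy1a1 fell by 1.64 with aldosterone and by 1.98 with vehicle between 2 h and 8 h.

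Gucy1b1, the heme-binding beta 1 subunit, continued to fall between 4 h and 8 h. At 2 h it read 11.04, 10.87 and 10.72 with aldosterone and 8.90, 10.86 and 10.84 with vehicle. At 4 h it read 9.82, 10.12 and 9.85 with aldosterone and 9.97, 10.12 and 9.79 with vehicle. At 8 h it read 8.58, 8.54 and 8.59 with aldosterone and 8.47, 8.46 and 8.33 with vehicle. The 3 times did not overlap with aldosterone, and with vehicle the single low sample at 2 h, replicate 1, lay below all 4 h samples. Over 2 h to 8 h Gucy1b1 changed by -2.31 ± 0.33 with aldosterone (SE, n = 3 and 3, limma adjusted p = 1.42e-05), 4.96-fold lower. With vehicle it was -1.78 ± 0.33 (limma adjusted p = 0.000207), 3.42-fold lower, and -2.43 without replicate 1 (limma adjusted p = 4.25e-11), 5.37-fold lower. The second probe set of Gucy1b1 did not show the low sample, which it read at 8.76, above the 8.14 and 8.01 of its group mates. That probe set fell by 2.40 ± 0.23 with aldosterone and by 2.28 ± 0.23 with vehicle. Gucy1b1 changed from 2 h to 4 h by -0.95 ± 0.33 with aldosterone (limma adjusted p = 0.0326). Leaving out any one of aldosterone 2 h replicates 1, 2 and 3 or aldosterone 4 h replicates 1 and 3 ended that call, with adjusted p values of 0.0517 to 0.098, while leaving out vehicle 2 h replicate 1 gave 2.18e-06. The call also ended with no filter, with quantile normalization again and with median centring (adjusted p = 0.0782, 0.0501 and 0.0629). The vehicle step was -0.24 with all samples (adjusted p = 0.602) and -0.89 without vehicle 2 h replicate 1 (adjusted p = 1.88e-05). It was -0.64 with probe sets averaged and -0.80 with array weights (adjusted p = 0.00913 and 0.000265).

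Npr1, the natriuretic peptide receptor that makes cyclic GMP, lost most of its signal in the later interval. Npr1 at 2 h read 5.65, 5.29 and 5.59 with aldosterone and 5.69, 5.65 and 5.39 with vehicle. At 4 h it read 4.87, 5.47 and 5.07 with aldosterone and 5.18, 5.15 and 5.15 with vehicle. At 8 h it read 3.92, 3.69 and 3.81 with aldosterone and 3.69, 3.91 and 3.70 with vehicle. All 8 h samples lay under the filter of 4 and below all earlier ones. Since a level at or under 4 is only a bound, Npr1 was at least 2.84-fold lower at 8 h than at 2 h with aldosterone and at least 2.99-fold lower with vehicle (limma adjusted p = 1.71e-07 and 7.56e-08). From 2 h to 4 h the changes were -0.37 ± 0.17 and -0.42 ± 0.17 and did not pass (limma adjusted p = 0.0914 and 0.0575). The aldosterone step passed without aldosterone 4 h replicate 2 (-0.538, adjusted p = 0.0232). The vehicle step passed without vehicle 2 h replicate 3 (-0.508, adjusted p = 0.038), and without aldosterone 4 h replicate 1 or 2 (adjusted p = 0.0497 and 0.0396). It also passed with no trend in the prior and with probe sets averaged (adjusted p = 0.041 and 0.0467).

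Npr3, the clearance receptor, changed mainly in the first interval. Npr3 at 2 h read 6.04, 5.93 and 6.56 with aldosterone and 7.96, 6.04 and 6.07 with vehicle. At 4 h it read 5.15, 5.50 and 5.13 with aldosterone and 5.09, 5.78 and 5.18 with vehicle. At 8 h it read 5.07, 4.99 and 5.14 with aldosterone and 5.14, 5.07 and 5.12 with vehicle. The 2 h samples were above all later ones, and vehicle 2 h replicate 1 was the highest by far. From 2 h to 8 h the change was -1.11 ± 0.36 with aldosterone (SE, n = 3 and 3, limma adjusted p = 0.0147), 2.16-fold lower, and it did not pass without aldosterone 2 h replicate 3 (-0.92, adjusted p = 0.0698). With vehicle it was -1.58 ± 0.36 (limma adjusted p = 0.00123), 2.99-fold lower, or -0.94 and 1.92-fold lower without vehicle 2 h replicate 1 (adjusted p = 0.00104). Npr3 changed from 2 h to 4 h by -0.92 ± 0.36 with aldosterone, which did not pass, and by -1.34 ± 0.36 with vehicle, which did (limma adjusted p = 0.0541 and 0.00769). Without vehicle 2 h replicate 1 the vehicle step was -0.70, 1.62-fold lower (adjusted p = 0.015), against 2.53-fold lower with it. The aldosterone step passed when any one of vehicle 2 h replicates 1, 2 and 3 was left out (adjusted p = 0.000847, 0.0384 and 0.0409). It also passed with the filter at 6, quantile normalization again, median centring and array weights (adjusted p = 0.046, 0.0308, 0.0316 and 0.00144). When the 2 compared groups were fitted alone, the aldosterone step passed and the vehicle step did not (adjusted p = 0.0074 and 0.111). Its other 2 probe sets stayed between 2.84 and 3.32 in all samples and under the filter.

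Ace, beside the hormone comparison above, fell in vehicle culture. Its 2 h levels were 8.04, 7.97 and 8.05 with aldosterone and 8.58, 8.01 and 7.82 with vehicle, and at 4 h 7.79, 7.89 and 7.69 with aldosterone and 7.83, 7.76 and 7.51 with vehicle. Vehicle samples of 8 h all lay below those of 2 h, whereas with aldosterone these times overlapped. The change from 2 h to 8 h was -0.11 ± 0.17 with aldosterone (SE, n = 3 and 3, limma adjusted p = 0.606) and -0.67 ± 0.17 with vehicle (limma adjusted p = 0.00296), 1.6-fold lower. Without vehicle 2 h replicate 1 the vehicle change was -0.45 (adjusted p = 0.0112). The vehicle step from 2 h to 4 h was -0.43 ± 0.17 (limma adjusted p = 0.056). It was -0.21 without vehicle 2 h replicate 1 (adjusted p = 0.258), and it passed without vehicle 2 h replicate 3 (-0.589, adjusted p = 0.0154) and with the replicate block (adjusted p = 0.0437). It also passed with the filter at 6, with probe sets averaged and with quantile normalization again (adjusted p = 0.0482, 0.0276 and 0.0319). The difference between the treatments was 0.56 ± 0.25 between 2 h and 8 h, and the test over all 3 times gave an adjusted p of 0.926. This difference rests in part on vehicle 2 h replicate 1. Aldosterone minus vehicle at 2 h was -0.11 with that sample and 0.11 without it. The test over all 3 times then gave an adjusted p of 0.663. The second Ace probe set changed by -0.15 with aldosterone and by -1.04 with vehicle. Its vehicle 2 h mean was 7.97, and 7.73 without vehicle 2 h replicate 1.

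Npy1r, the Y1 receptor of neuropeptide Y, had the largest fall of the 8 genes. Npy1r at 2 h read 7.94, 7.42 and 7.39 with aldosterone and 8.63, 7.41 and 7.93 with vehicle. Npy1r at 4 h read 6.11, 6.36 and 5.08 with aldosterone and 5.10, 6.09 and 5.75 with vehicle. Npy1r at 8 h read 3.21, 2.40 and 3.49 with aldosterone and 2.28, 2.23 and 3.50 with vehicle. The 3 times did not overlap in either treatment, and all 8 h samples lay under the filter. Npy1r was at least 12-fold lower at 8 h than at 2 h with aldosterone and at least 15.9-fold lower with vehicle, or at least 12.7-fold without vehicle 2 h replicate 1 (limma adjusted p = 6.42e-08, 8.92e-09 and 4.13e-08). From 2 h to 4 h it changed by -1.73 ± 0.41 with aldosterone and -2.35 ± 0.41 with vehicle (limma adjusted p = 0.00335 and 0.000304). A second probe set lay between 2.06 and 2.15 in all samples and gives no level.

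**Figure D3:**
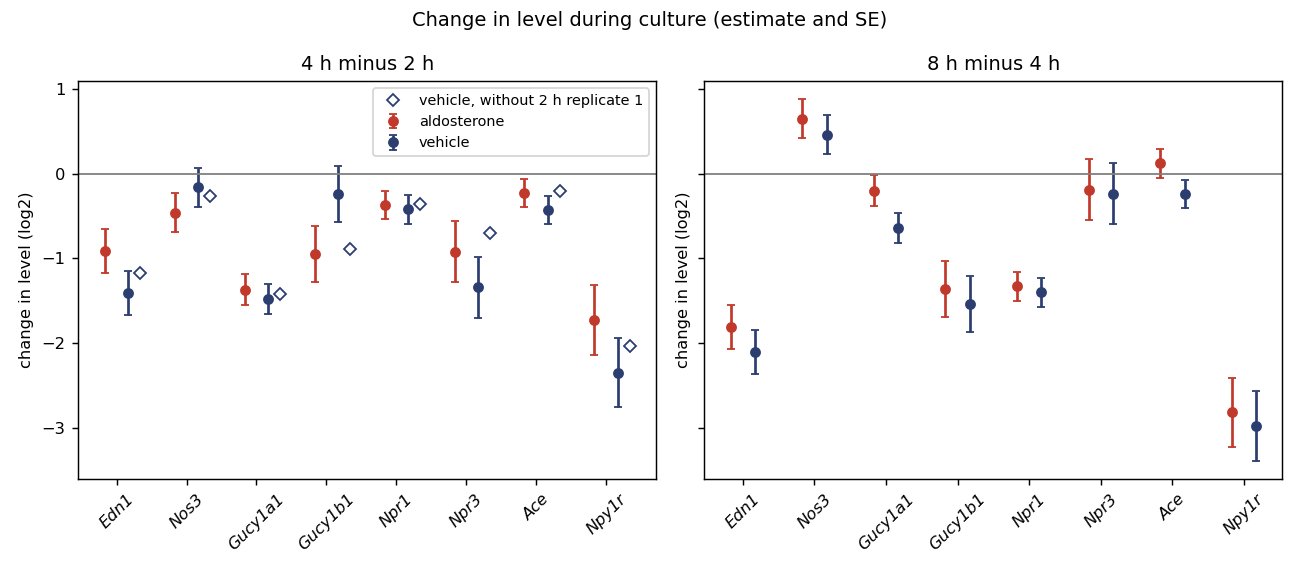
Change in log2 level (vertical axis) of the 8 genes from 2 h to 4 h on the left and from 4 h to 8 h on the right, aldosterone in red and vehicle in blue; points are limma estimates, bars are SE, and open diamonds are the vehicle change without vehicle 2 h replicate 1. Gucy1a1 and Npr3 changed mainly in the first interval, Npr1 mainly in the second, and Edn1 and Npy1r in both.

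Smooth muscle, the site of soluble guanylate cyclase, and fibroblasts also lost marker signal in culture. Of 11 smooth muscle markers, 0 rose and 9 fell with aldosterone and 1 rose and 8 fell with vehicle between 2 h and 8 h. Their summed linear level at 8 h was 38200 to 45400 with aldosterone and 41200 to 50000 with vehicle, against 85900 to 91300 and 68500 to 84700 at 2 h. Of 8 fibroblast markers, 8 fell with aldosterone and 7 with vehicle. Of 8 macrophage markers, 6 fell and 1 rose in each treatment, with medians of -1.63 with aldosterone and -2.29 with vehicle. Of 8 adipocyte markers, 6 fell in each treatment, with medians of -1.40 and -1.42. Without vehicle 2 h replicate 1 the last vehicle median was -0.99, and 7 adipocyte markers fell with aldosterone and 5 with vehicle. In vehicle culture 9 smooth muscle, 8 fibroblast and 5 macrophage markers then fell, with a macrophage median of -2.13. The part of these lists in the falls of the 8 genes was not tested.

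For the 6 genes whose group means spanned more than 1, the genes with the closest profiles over the 6 group means were found by the root mean square of the differences after centring each profile. Closest to Npy1r were the immediate early gene Fos (0.16), Cygb, which encodes cytoglobin (0.21), and the immediate early nuclear receptor gene Nr4a1 (0.21). Closest to Edn1 were Gpr155 (0.12), Scara5 (0.13) and Anln (0.13). For Gucy1a1 they were the macrophage scavenger receptor gene Cd163 (0.07), Amy1 (0.12) and Cntln (0.12), and for Gucy1b1 they were Fbxo33 (0.09), Crim1 (0.12) and Zbtb20 (0.13). Npr1 was closest to Nfatc1 (0.06), Grn (0.06) and Itm2b (0.07), and Npr3 to Pdcd4 (0.08), Abcd2 (0.09) and Sp4 (0.09). The 8 h values of Npy1r and Npr1 were under the filter, so their distances and ranks rest in part on background signal. Those of Gucy1b1 and Npr3 rest in part on vehicle 2 h replicate 1. The vehicle 2 h mean was 10.20 for Gucy1b1, against 10.85 without that sample, and 6.69 for Npr3, against 6.05. Distances were not computed without it. All profiles share the same 18 arrays and a common time course, and the values are descriptions without a test.

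The other genes of these pathways were counted from lists chosen with earlier results of these data known. Of 44 such genes measured, 0 passed between aldosterone and vehicle at any of the 3 times or on the average, with a lowest adjusted p of 0.326 at 2 h, 0.275 at 4 h, 0.325 at 8 h and 0.225 on the average (limma). Without vehicle 2 h replicate 1, 1 gene passed at 4 h, against 0.451% of all genes tested. It was higher with aldosterone and came from the list of other vasoactive peptides and their receptors. Of the 5 genes measured in that list, only Adm had all aldosterone samples above the vehicle samples at 4 h. Its levels were 10.17 to 10.38 with aldosterone and 9.30 to 9.74 with vehicle. The changes below compare times within each treatment. Over all genes tested, 29.2% rose and 27.3% fell between 2 h and 8 h with aldosterone, and 26.6% rose and 31.9% fell with vehicle, with medians of 0.02 and -0.07. Leaving out vehicle 2 h replicate 1, 30.6% fell with aldosterone and 28.6% with vehicle, with a median of 0.02 in each. The shares that rose without that sample are not given here.

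In the endothelin system 3 of 10 listed genes were measured. Between 2 h and 8 h, 1 rose and 1 fell with aldosterone, and 0 rose and 1 fell with vehicle. Mme, which encodes the endothelin-degrading peptidase neprilysin, fell by 1.72 ± 0.20 with aldosterone and by 2.02 ± 0.20 with vehicle (limma adjusted p = 1.15e-06 and 1.58e-07). Ece1, the enzyme that releases endothelin from its precursor, rose by 0.46 ± 0.14 with aldosterone (adjusted p = 0.0105). Edn2, a second endothelin ligand, was above the filter in 4 h samples only: its levels were 2.41 to 2.42, 2.49 to 5.00 and 2.44 to 2.44 at 2, 4 and 8 h with aldosterone and 2.45 to 3.52, 5.35 to 5.54 and 2.41 to 3.42 with vehicle. With vehicle Edn2 was at least 2.72-fold higher at 4 h than at 2 h (limma adjusted p = 0.000179). With aldosterone its 4 h mean was below the filter, the difference from 2 h was 1.37 ± 0.43 (limma adjusted p = 0.0197), and no fold is given.

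In nitric oxide synthesis and its regulators 15 of 26 listed genes were measured, and Nos1 and Nos2, the other synthases, lay under the filter. Between 2 h and 8 h, 4 rose and 3 fell with aldosterone, and 5 rose and 3 fell with vehicle, with medians of 0.16 and 0.05. With all 18 samples these counts were near the shares over all genes. Without vehicle 2 h replicate 1, 6 rose and 3 fell with aldosterone, and 7 rose and 2 fell with vehicle. The vehicle median was then 0.28. With no share of rising genes over all genes for that fit, these rises cannot be read as a departure from it. Arg1, the arginase that competes with nitric oxide synthase for arginine, was between 2.12 and 2.31 in all 2 h and 4 h samples, and 6.59 to 7.22 with aldosterone and 5.32 to 7.43 with vehicle at 8 h. Its rise from 2 h to 8 h was at least 7.45-fold with aldosterone and at least 4.46-fold with vehicle (limma adjusted p = 4.42e-09 and 3.14e-08). Slc7a2, a transporter of arginine, rose by 2.20 ± 0.31 with aldosterone and 1.59 ± 0.31 with vehicle. Ddah2, which breaks down methylated arginines that inhibit nitric oxide synthase, fell by 2.82 ± 0.31 with aldosterone and by 3.19 ± 0.31 with vehicle. Gch1, which starts the synthesis of the cofactor tetrahydrobiopterin, rose between 4 h and 8 h by 1.05 ± 0.22 with aldosterone and 0.70 ± 0.22 with vehicle (limma adjusted p = 0.00127 and 0.0189).

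In cyclic GMP signalling 10 of 24 listed genes were measured. Between 2 h and 8 h, 2 rose and 4 fell with aldosterone, and 2 rose and 3 fell with vehicle, with a median of -0.36 in each. Without vehicle 2 h replicate 1, 2 rose and 5 fell with aldosterone, and 2 rose and 2 fell with vehicle. The vehicle median was then -0.17. Pde1a, a phosphodiesterase that degrades cyclic GMP, was 4.30 to 5.55 at 2 h and 4 h, and 7.11 to 7.49 with aldosterone and 7.31 to 7.47 with vehicle at 8 h. It rose between 2 h and 8 h by 2.61 ± 0.19 with aldosterone and 2.31 ± 0.19 with vehicle (limma adjusted p = 4.64e-09 and 1.69e-08). Vasp, a substrate of the cyclic GMP-dependent kinase, rose by 1.20 ± 0.16 and 1.05 ± 0.16. Prkg1, the kinase itself, fell by 1.60 ± 0.36 with aldosterone and by 1.67 ± 0.36 with vehicle, and Ppp1r14a, an inhibitor of myosin phosphatase, fell by 1.28 ± 0.22 and by 1.04 ± 0.22.

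In the natriuretic peptide system 4 of 9 listed genes were measured, and the peptide genes Nppa, Nppb and Nppc lay under the filter. Between 2 h and 8 h, 1 rose and 2 fell with aldosterone, and 2 rose and 2 fell with vehicle, with medians of -0.55 and -0.18. Without vehicle 2 h replicate 1, 1 rose and 2 fell in each treatment, with a vehicle median of -0.20. Npr2, the receptor guanylate cyclase for C-type natriuretic peptide, fell by 1.68 ± 0.25 with aldosterone and by 1.64 ± 0.25 with vehicle (limma adjusted p = 2.17e-05 and 2.69e-05). Pcsk6, a proprotein convertase, fell by 1.14 ± 0.23 and by 0.85 ± 0.23, and Furin, another convertase, rose by 0.48 ± 0.15 in each treatment.

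**Figure D4:**
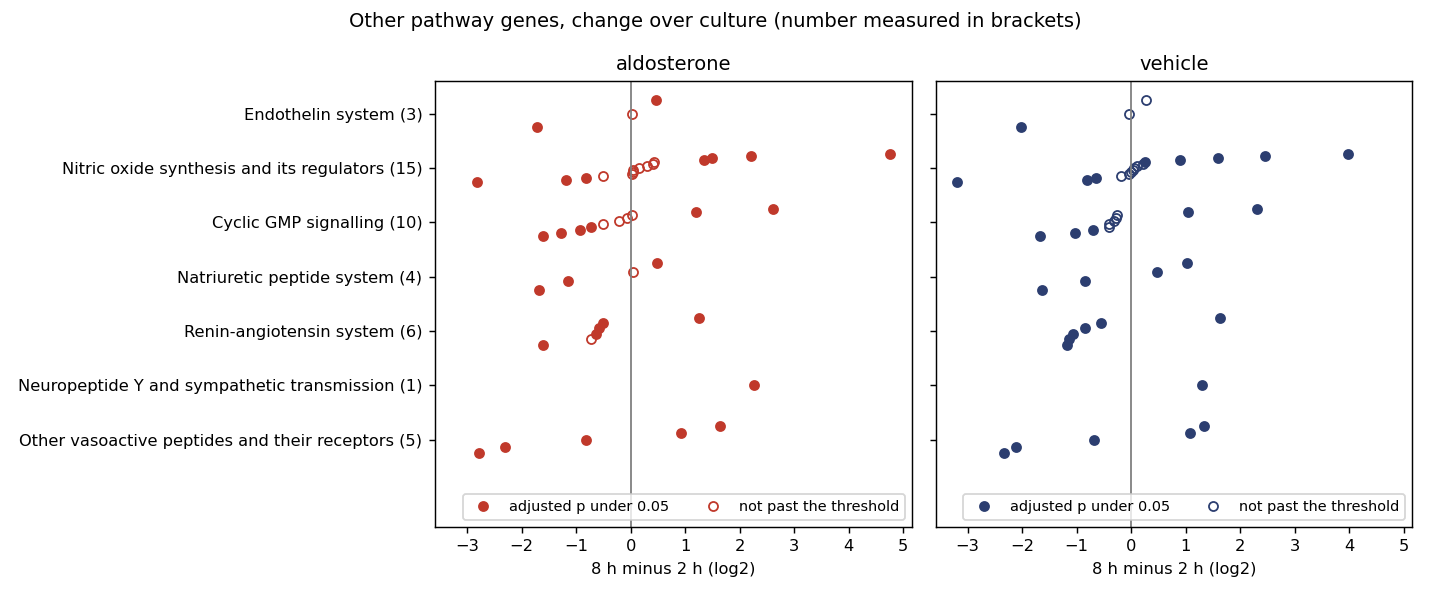
Change in log2 level from 2 h to 8 h (horizontal axis) of the other pathway genes measured, by list, with aldosterone on the left and vehicle on the right; filled points passed an adjusted p of 0.05 and open points did not. Rises and falls are present in most lists. Values under the filter are drawn as deposited, so the plotted rise of Arg1, which was under the filter at 2 h, is known only as a bound.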

How the data were processed

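Per the submitters' processing notes, the authors made the deposited log2 values with GCRMA; the sources used here name no version or settings. Of 22690 probe sets, 20393 had 1 annotated gene. Probe sets above 4 in at least 3 of 18 samples were kept (11244), and the brightest stood for its gene (7093 genes). The 6 groups were fitted together in limma 3.58.1 (R 4.3.3) with a trended prior and 12 residual degrees of freedom. P-values were Benjamini-Hochberg adjusted over all genes, or over all probe sets for second probe sets, with a threshold of 0.05. A group with every sample at or under 4 has only a bound, and the fold against it is the other mean over 4. With 3 arrays a group, their number limits the precision. The scripts were tested on simulated data. Beside the 9 genes, the text names the 3 nearest profiles and some of the called genes of the lists. Those called genes were among the 3 with the smallest adjusted p of their list in a comparison, and not all such genes are named. Members and lists were chosen with earlier results of these data known. Alternatives changed the filter, probe set choice, normalization, array weights and prior, added a replicate term, fitted the compared groups alone or left out each sample.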

Additional observations from a re-analysis of the deposited data

How the results depend on the processing

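Over 2437 values from 88 pairs of gene and comparison, 17 calls were lost, 23 were gained and 0 called values took the opposite sign. With array weights 1 gene (Ace, adjusted p 0.0443) passed between aldosterone and vehicle at 8 h, against 0; with probe sets averaged 7 passed in vehicle culture from 2 h to 4 h, against 4; without one sample at a time 2 to 5 passed in aldosterone culture from 2 h to 4 h, against 4, the lowest without aldosterone 2 h replicate 3. The number of all genes called between aldosterone and vehicle ran from 0 to 53 at 2 h (5 as reported), from 5 to 42 at 4 h (17), from 33 to 222 at 8 h (71), from 53 to 260 on the average (78) and from 8 to 29 for change with time (11); for vehicle from 2 h to 4 h it was 1330 with the compared groups alone, against 2853. The fit of the compared groups alone gives no value for the average or for change with time.

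Small uncalled differences between aldosterone and vehicle changed sign. Centring gave Ace 0.031 and Npr1 0.073 at 2 h and Npr1 0.032 on the average. Array weights gave Edn1 0.078, Nos3 -0.002, Ace 0.125, Npr1 0.046 and Npr3 0.063 at 2 h and Npr1 -0.044 at 8 h. Averaged probe sets gave Gucy1b1 -0.015 at 8 h and Gucy1a1 0.005 on the average. Leaving out 1 sample gave these ranges at 2 h: Edn1 -0.369 to 0.048, Nos3 -0.093 to 0.178, Ace -0.271 to 0.107, Npr1 -0.164 to 0.039 and Npr3 -0.836 to 0.126. At 4 h they were Ace -0.009 to 0.150, Gucy1b1 -0.125 to 0.053, Npr1 -0.194 to 0.106, Npr3 -0.225 to 0.122 and Npy1r -0.067 to 0.592. At 8 h they were Nos3 -0.343 to 0.086 and Npr1 -0.020 to 0.109, and on the average Npr1 -0.076 to 0.024 and Npy1r -0.041 to 0.193. In culture they were Gucy1b1 -0.888 to 0.093 and Nos3 -0.258 to 0.013 for vehicle from 2 h to 4 h, Ace -0.021 to 0.218 for aldosterone from 4 h to 8 h and Nos3 -0.050 to 0.379 for aldosterone from 2 h to 8 h. The cause was not tested.

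Replicate numbers are shared by the groups, but only 6 of 45 same-numbered pairs deviated together with a correlation over 0.1 (range -0.187 to 0.282), so they were not taken as pairs. With the replicate block 5 genes, against 4, passed in vehicle culture from 2 h to 4 h, Ace being added at an adjusted p of 0.0437, and the counts of the other 10 comparisons were those reported.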

Other observations

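Of the renin-angiotensin genes beside Ace, 6 of 16 listed were measured, and between 2 h and 8 h 1 rose and 4 fell with aldosterone and 1 rose and 5 fell with vehicle. Without vehicle 2 h replicate 1, 5 fell with aldosterone and 4 with vehicle, and 1 rose in each. Atp6ap2, which encodes the prorenin receptor, fell by 0.50 ± 0.10 with aldosterone and by 0.84 ± 0.10 with vehicle (limma adjusted p = 0.000354 and 1.33e-06). Prep, a prolyl peptidase gene, rose by 1.25 ± 0.23 and 1.62 ± 0.23. Anpep lay under the filter in all 8 h samples. It was at least 1.38-fold lower at 8 h than at 2 h with aldosterone and at least 1.02-fold lower with vehicle (limma adjusted p = 4.46e-06 and 0.000297). Agt, the angiotensinogen gene, lay under the filter.

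Npy, the gene of the peptide that the Y1 receptor binds, was the 1 gene measured of 16 listed for neuropeptide Y and sympathetic transmission. Its levels were 2.68 to 3.44 with aldosterone and 2.69 to 3.25 with vehicle at 2 h and 4 h, and 4.52 to 5.63 with aldosterone and 3.60 to 5.04 with vehicle at 8 h. Its rise from 2 h to 8 h was at least 2.27-fold with aldosterone and at least 1.18-fold with vehicle (limma adjusted p = 7.31e-06 and 0.00166), while Npy1r fell.

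Of 23 other vasoactive peptide and receptor genes, 5 were measured, and 2 rose and 3 fell in each treatment between 2 h and 8 h. Adm, which encodes the vasodilator adrenomedullin, rose by 1.64 ± 0.19 with aldosterone and 1.33 ± 0.19 with vehicle (limma adjusted p = 1.29e-06 and 1.27e-05). From 2 h to 4 h Adm rose by 2.03 ± 0.19 with aldosterone and by 1.21 ± 0.19 with vehicle. Calcrl, its receptor, rose by 0.93 ± 0.26 and 1.08 ± 0.26. Ramp1 and Ramp2 encode partner proteins of that receptor. Ramp1 changed by -2.78 ± 0.25 with aldosterone and -2.33 ± 0.25 with vehicle, and Ramp2 by -2.30 ± 0.36 and -2.12 ± 0.36 (limma adjusted p = 6.23e-08, 4.65e-07, 2.93e-05 and 6.77e-05).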
